A study of Homo sapiens with 6 samples.

Results

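The results concern 31 genes of the endoplasmic reticulum (ER) unfolded protein response, the stress sensors, chaperones, folding enzymes and degradation factors that a cell calls on when unfolded protein builds up in the ER. They were chosen by gene symbol, and all 31 were found among the 27328 loci of the deposited expression table. Purified mRNA had been sequenced from SACC-83, an established human line from a salivary adenoid cystic carcinoma. One group of 3 libraries came from cells overexpressing circMYBL1, a circular RNA that takes its name from MYBL1, a transcription factor gene, and the other group of 3 came from vector control cells, whose genotype is labelled WT. The stated purpose was to identify target genes of the circular RNA. The genotype labels of the overexpression libraries read circMYBL1, circMYBL2 and circMYBL3 in step with the replicate number, while the design text names circMYBL1 only, so the 3 were treated as replicates by their titles. No label says whether libraries of a group came from separate cultures or clones, so the p-values rest on a spread between libraries that may be technical.

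As background, the unfolded protein response starts from sensors in the ER membrane. IRE1 (gene ERN1) splices the mRNA of XBP1 into the form that encodes an active transcription factor, PERK (EIF2AK3) phosphorylates a translation initiation factor and so favours translation of ATF4, and ATF6 is cut in the Golgi to release a transcription factor. XBP1 and ATF6 raise genes for chaperones such as BiP (HSPA5), for disulfide isomerases and for ER-associated degradation (ERAD), which returns misfolded proteins to the cytosol. Gene-level values measure mRNA and show neither splicing of XBP1, nor phosphorylation, nor cleavage of ATF6.

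MYBL1 read 359, 44.0 and 2025 FPKM in overexpression replicates 1, 2 and 3, against 9.04, 7.15 and 10.3 FPKM in vector replicates 1, 2 and 3, in the direction of the group labels, but the gene-level value does not separate the circle from linear MYBL1. FPKM, the fragments of a gene scaled by gene length and by the mapped total, allows levels of different genes to be set side by side. Read depth per library is unknown from these values, so no counting error can be given. Of 8 epithelial markers, 7 read at least 1 FPKM in all 6 libraries, with summed levels of 1756 to 2020.2 FPKM in overexpression and 1723 to 1860.04 FPKM in vector libraries. KIT, a receptor often used as a marker of adenoid cystic carcinoma, was listed at 0 in all 6, as were the leukocyte markers PTPRC, CD3E and LYZ, the plasma cell markers JCHAIN and TNFRSF17, KDR of endothelium and COL1A2 of fibroblasts. CD68 (6.49 to 10.8 FPKM) of the 5 leukocyte markers, SDC1 (45.0 to 66.7 FPKM) of 4 plasma cell markers and COL1A1 (2.95 to 11.1 FPKM) of 6 fibroblast markers read above 1 FPKM in all 6 libraries, and the other markers of those lists did not. Of 7 myoepithelial or salivary adenoid cystic markers, 2 read at least 1 FPKM in all 6 libraries, MYBL1 and ACTA2. Over the 6 libraries NFIB averaged 1.52 FPKM, MYB 0.935 FPKM, SOX10 0.340 FPKM and CNN1 0.132 FPKM. The libraries numbered 2 stood apart from the other 4 in both groups.

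Promoter sequences are shown because many of these genes share a known control element. The ER stress response element (ERSE), bound by NF-Y together with ATF6 or XBP1, was searched as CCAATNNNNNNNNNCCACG, its shorter variant ERSE-II as ATTGGNCCACG, and the unfolded protein response element (UPRE) as TGACGTGG. Both strands were searched, with no mismatch, in RefSeq promoter windows (build GRCh38.p14) of 250 bases before to 50 bases after a start. Windows were matched for 28 of the 31 genes, all but PDIA3, DERL1 and SEC24D. An exact ERSE lay in 7 of the 28 (25.0%), against 0.0916% of all 27305 genes with a window. ERSE-II lay in 3 of the 28 (10.7%), against 0.0696% of all genes. The UPRE letters lay in 1 of the 28, HYOU1, against 0.927%. A match describes the letters and not binding in these cells. The matches are printed on the gene's strand, 5′ to 3′, with the fixed letters in capitals, and those that begin with CGTGG read as the element on the opposite strand.
XBP1 ERSE, chr22:28800603-28800621, minus strand: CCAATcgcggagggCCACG
HSPA5 ERSE, chr9:125241391-125241409, minus strand: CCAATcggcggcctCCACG
HSP90B1 upstream ERSE, chr12:103930216-103930234, plus strand: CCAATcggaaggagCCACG
HSP90B1 downstream ERSE, chr12:103930321-103930339, plus strand: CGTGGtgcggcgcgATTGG
CALR ERSE, chr19:12938384-12938402, plus strand: CGTGGtcgaccatcATTGG
CANX ERSE, chr5:179698778-179698796, plus strand: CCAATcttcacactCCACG
PDIA6 ERSE, chr2:10812853-10812871, minus strand: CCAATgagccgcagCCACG
CRELD2 ERSE, chr22:49918554-49918572, plus strand: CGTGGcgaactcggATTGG
HERPUD1 ERSE-II, chr16:56932025-56932035, plus strand: ATTGGgCCACG
SDF2L1 ERSE-II, chr22:21642114-21642124, plus strand: CGTGGaCCAAT
HYOU1 ERSE-II nearer the start, chr11:119057274-119057284, minus strand: CGTGGtCCAAT

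Whole windows follow for 4 genes. HSPA5 is the chaperone called for a difference between replicate numbers on FPKM, and HSP90B1 and HYOU1 are chaperones not called on FPKM. CRELD2 had the highest log2 fold change of the 31. Capitals mark the fixed letters of the elements. In HYOU1 the capitals of the upstream site join the UPRE letters and an ERSE-II that overlap, and a second ERSE-II lies nearer the start.
HSPA5 promoter, chr9:125241294-125241593, minus strand: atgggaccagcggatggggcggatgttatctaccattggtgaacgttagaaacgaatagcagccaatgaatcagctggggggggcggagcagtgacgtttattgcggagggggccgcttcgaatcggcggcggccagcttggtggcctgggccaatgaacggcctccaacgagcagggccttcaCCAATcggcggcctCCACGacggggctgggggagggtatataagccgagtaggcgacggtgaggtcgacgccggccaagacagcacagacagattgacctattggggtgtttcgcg
HSP90B1 promoter, chr12:103930160-103930459, plus strand: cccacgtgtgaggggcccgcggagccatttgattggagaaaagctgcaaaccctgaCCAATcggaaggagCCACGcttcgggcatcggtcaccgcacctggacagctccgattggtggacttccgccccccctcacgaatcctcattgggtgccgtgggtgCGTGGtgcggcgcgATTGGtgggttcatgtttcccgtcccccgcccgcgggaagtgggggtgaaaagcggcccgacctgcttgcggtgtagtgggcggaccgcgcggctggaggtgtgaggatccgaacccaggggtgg
HYOU1 promoter, chr11:119057156-119057455, minus strand: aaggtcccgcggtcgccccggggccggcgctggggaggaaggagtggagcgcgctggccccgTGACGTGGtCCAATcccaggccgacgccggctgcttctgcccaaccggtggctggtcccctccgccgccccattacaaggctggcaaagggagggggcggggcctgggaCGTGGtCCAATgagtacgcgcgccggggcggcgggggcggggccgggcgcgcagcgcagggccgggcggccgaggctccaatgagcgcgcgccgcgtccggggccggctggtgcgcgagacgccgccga
CRELD2 promoter, chr22:49918384-49918683, plus strand: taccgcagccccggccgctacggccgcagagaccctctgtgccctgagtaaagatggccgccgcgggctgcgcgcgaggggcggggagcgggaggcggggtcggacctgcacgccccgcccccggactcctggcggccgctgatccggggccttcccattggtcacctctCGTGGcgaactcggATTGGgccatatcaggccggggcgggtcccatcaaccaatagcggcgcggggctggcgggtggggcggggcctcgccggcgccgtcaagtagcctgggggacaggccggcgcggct

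**Figure D1:**
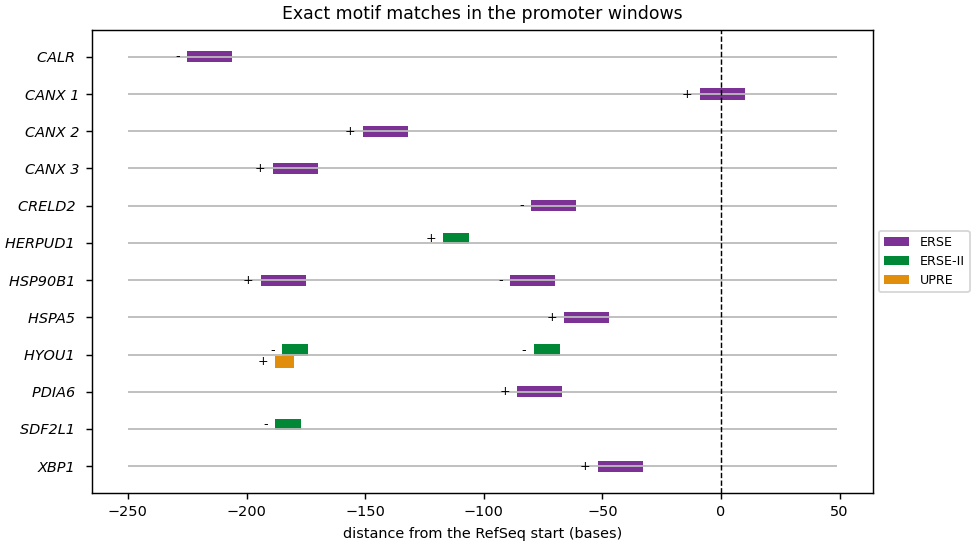
Exact matches to ERSE, ERSE-II and UPRE (coloured boxes) in the promoter windows of the 10 genes that hold one, by distance in bases from the RefSeq start (dashed line), with + or - for the strand of the element relative to the gene. CANX has 3 windows for 3 starts, all of which hold the same site.

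In SACC-83 cells of both groups, the highest mRNA levels among the 31 genes were those of ER chaperones. These levels were not set against other cells. HSP90B1, which encodes the ER HSP90 chaperone GRP94, had the highest level at 504 ± 24.9 FPKM (mean and SD over all 6 libraries), followed by the lectin chaperone CALR at 485 ± 41.2 FPKM, and these differed by less than their spread. HSPA5 followed at 358 ± 54.8 FPKM, ahead of the lectin chaperone CANX at 279 ± 33.4 FPKM and the disulfide isomerase P4HB at 249 ± 30.3 FPKM, whose ranges overlapped. Of the other isomerases, PDIA3 had 199 ± 17.2 FPKM, while PDIA4 (138 ± 18.1 FPKM) and PDIA6 (136 ± 12.7 FPKM) differed by less than their spread. Together these 8 genes held 80.9% to 82.7% of the summed FPKM of the 31 genes in a library. MANF (58.4 ± 5.89 FPKM), DNAJB11 (56.6 ± 6.27 FPKM), SEC61B (54.1 ± 12.4 FPKM) and HYOU1 (52.8 ± 1.602 FPKM) came next and could not be ordered. The sensors lay low, with ATF6 at 13.03 ± 1.55 FPKM, EIF2AK3 at 3.97 ± 0.957 FPKM and ERN1 at 1.90 ± 0.331 FPKM. HYOU1, an HSP70-like ER chaperone, had the smallest coefficient of variation of the 31, with 50.9 to 55.4 FPKM over the 6 libraries. EIF2AK3 (3.06 to 5.19 FPKM), SEC61B (37.3 to 75.4 FPKM) and CRELD2 (12.9 to 22.3 FPKM) had the largest.

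**Figure D2:**
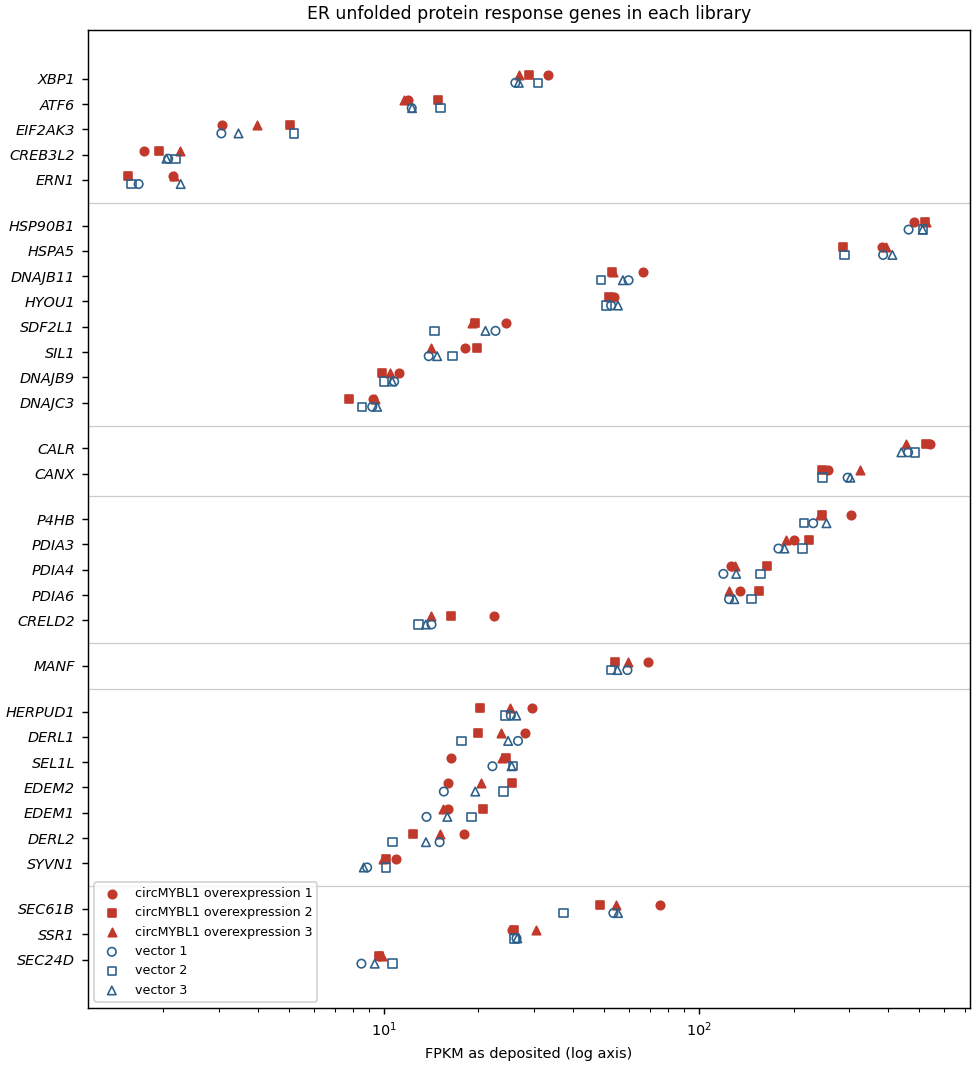
FPKM as deposited (log axis) of each of the 31 genes in the 3 circMYBL1 overexpression libraries (filled red) and the 3 vector libraries (open blue), with the symbol shape giving the replicate number and grey lines parting the roles. Mean levels over the 6 libraries span from 1.90 FPKM for ERN1 to 504 FPKM for HSP90B1, and the ranges of the groups overlap for every gene.

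The design asks whether overexpression of circMYBL1 changed these genes, and none of them was called. In limma's test on log2(FPKM + 1), with Benjamini-Hochberg adjustment over all 12064 genes that passed the filter on low values, 0 of the 31 had an adjusted p under 0.05, against 0% of all genes. All 31 had passed that filter, which asks for at least 1 FPKM in at least 3 libraries. With replicate number as a block, which pairs same-numbered libraries, limma called 0 of the 31, against 0.0995% of all genes. MYBL1 itself, with a log2 fold change of 5.04 and ranges apart, was not called without the block. With the block it was called (limma, adjusted p = 0.0225). The fit without the block thus missed a large difference, and a gene that it did not call may still have changed. At an unadjusted p under 0.05, limma gave 0 of the 31 without the block, against 0.539% of all genes, and 2 of the 31 with it (CRELD2 and SEC61B), against 7.19%. The ranges of the groups were apart for 0 of the 31, against 3.34% of all genes (2.50% with overexpression above vector and 0.845% below).

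Log2 fold changes, overexpression minus vector on the log2(FPKM + 1) scale, lay between -0.19 for SEL1L and 0.33 for CRELD2. Their median was 0.05, beside 0.03 over all genes tested. The mean was higher in overexpression libraries for 23 of the 31 genes and lower for 8, and it was higher for 58.1% of all genes. For all 31 genes the 95% interval lay within 1 log2 unit of no change, as it did for 10676 of the 12064 genes. The interval lay within 0.5 log2 units for 19 of the 31 without the block and for 29 with it, the exceptions with it being CRELD2 and SEC61B. Over all genes it did so for 3832 of the 12064 without the block and for 10377 with it. Together the 31 genes made up 0.735%, 0.758% and 0.746% of summed FPKM in overexpression replicates 1, 2 and 3, against 0.703%, 0.739% and 0.733% in vector replicates 1, 2 and 3. Within same-numbered pairs, 8 genes were higher in 3 of 3 pairs (HSP90B1, CALR, PDIA3, CRELD2, MANF, SYVN1, DERL2 and EDEM2), against 16.5% of all genes. The 3 genes ATF6, HSPA5 and SEL1L were lower in 3 of 3, against 11.9% of all genes. Under other settings or without 1 library, 23 of the 31 log2 fold changes turned sign at least once.

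**Figure D3:**
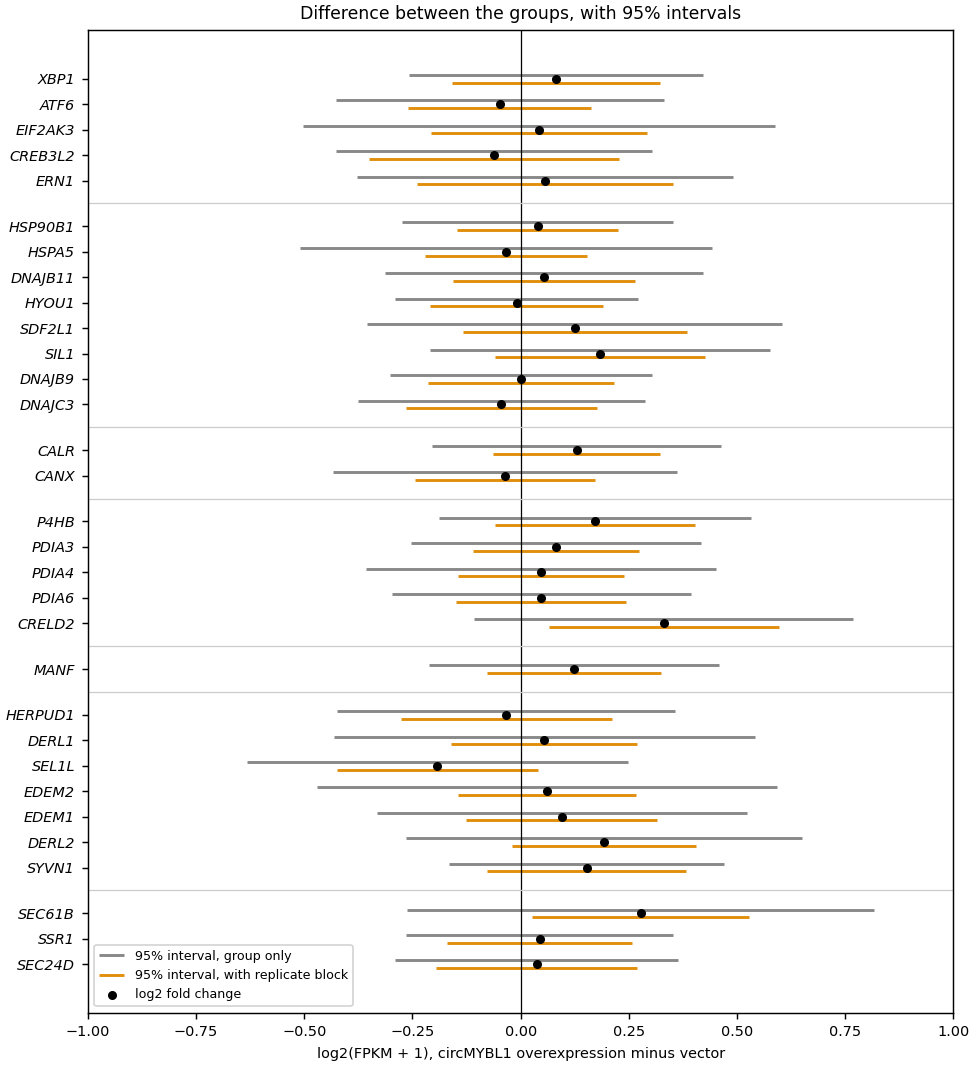
Log2 fold change, circMYBL1 overexpression minus vector on the log2(FPKM + 1) scale (black points), with 95% intervals from the fit on group alone (grey) and the fit with replicate block (orange). All 31 grey intervals cross 0, the orange intervals of CRELD2 (from 0.07 to 0.60) and SEC61B (from 0.03 to 0.53) do not, and neither gene passed the adjustment over all genes.

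Sensors and transcription factors of the pathway were not called between the groups. ERN1 (ENSG00000178607, chromosome 17, 64039142 to 64130819) read 2.15, 1.54 and 2.16 FPKM in overexpression replicates 1, 2 and 3, against 1.67, 1.58 and 2.27 FPKM in vector replicates 1, 2 and 3. EIF2AK3 (ENSG00000172071, chromosome 2, 88556741 to 88627576) read 3.08, 5.06 and 3.95 FPKM in overexpression libraries, against 3.06, 5.19 and 3.46 FPKM in vector libraries. For both sensors the libraries of the groups interleaved, with log2 fold changes of 0.06 for ERN1 and 0.04 for EIF2AK3. ATF6 (ENSG00000118217, chromosome 1, 161766294 to 161964070), the sensor that is itself a transcription factor, read 11.96, 14.8 and 11.6 FPKM in overexpression libraries, against 12.3, 15.2 and 12.3 FPKM in vector libraries. Each overexpression library lay just under the vector library of its number, by 0.04, 0.03 and 0.08 log2 units, and the number 2 libraries were the highest of both groups. The 95% interval of its log2 fold change ran from -0.43 to 0.33 without the block and from -0.26 to 0.16 with it.

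XBP1 (ENSG00000100219, chromosome 22, 28794555 to 28800597), the target of IRE1 splicing, read 33.3, 28.9 and 27.0 FPKM in overexpression libraries, against 26.2, 30.9 and 26.9 FPKM in vector libraries. The highest library was overexpression replicate 1 and the next was vector replicate 2, so the groups overlapped (log2 fold change 0.08, interval from -0.26 to 0.42). CREB3L2, an ER-bound transcription factor related to ATF6, read 1.74, 1.94 and 2.25 FPKM in overexpression libraries, against 2.07, 2.19 and 2.05 FPKM in vector libraries. Its groups overlapped as well, with a log2 fold change of -0.06.

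Among chaperones of the HSP70 and HSP90 system, HSPA5 (ENSG00000044574, chromosome 9, 125234853 to 125241330) encodes BiP, which binds the sensors in unstressed cells and whose mRNA is a usual marker of ER stress. HSPA5 read 382, 286 and 391.7 FPKM in overexpression replicates 1, 2 and 3, against 385, 291 and 412 FPKM in vector replicates 1, 2 and 3. Same-numbered libraries lay within 0.01, 0.02 and 0.07 log2 units of each other, while both number 2 libraries lay below the other 4. HSPA5 gave a log2 fold change of -0.03 (SE 0.20, limma, adjusted p = 1.0), with an interval from -0.51 to 0.44 without the block and from -0.22 to 0.15 with it.

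HSP90B1 averaged 511 ± 23.5 FPKM in overexpression and 497 ± 29.3 FPKM in vector libraries (SD, n = 3 each), a log2 fold change of 0.04. HYOU1 gave -0.01, and DNAJB9, a J-domain partner of BiP and target of XBP1, gave 0.00. DNAJC3, another J-domain partner, had the lowest log2 fold change of this role at -0.04 and read 9.28, 7.78 and 9.38 FPKM in overexpression libraries, against 9.20, 8.56 and 9.54 FPKM in vector libraries. Its lowest library was overexpression replicate 2, and the groups overlapped. SIL1, a nucleotide exchange factor of BiP, had the highest of this role at 0.18 (interval from -0.21 to 0.58) and read 18.2, 19.8 and 14.2 FPKM in overexpression libraries, against 13.9, 16.6 and 14.8 FPKM in vector libraries. Overexpression was higher in pairs 1 and 2 and lower in pair 3. The J-domain protein DNAJB11 gave 0.05 and SDF2L1, an ER protein that works with J-domain partners of BiP, gave 0.12.

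The lectin chaperones, which hold glycoproteins during folding, were not called. CALR, which encodes calreticulin, read 540.02, 528 and 454 FPKM in overexpression libraries, against 462, 486 and 439.7 FPKM in vector libraries. CANX, which encodes the membrane-bound calnexin, read 257, 246 and 325 FPKM in overexpression libraries, against 297, 247 and 303 FPKM in vector libraries. CALR was higher in 3 of 3 pairs and CANX in 1 of 3, with log2 fold changes of 0.13 for CALR (interval from -0.20 to 0.46) and -0.04 for CANX (interval from -0.43 to 0.36). The groups overlapped for both.

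CRELD2 (ENSG00000184164, chromosome 22, 49918167 to 49927540), an ER stress-induced protein with disulfide isomerase activity, had the highest log2 fold change of the 31 genes. It read 22.3, 16.4 and 14.1 FPKM in overexpression replicates 1, 2 and 3, against 14.2, 12.9 and 13.6 FPKM in vector replicates 1, 2 and 3. The vector libraries lay close together, overexpression replicate 1 lay above all others, and overexpression replicate 3 fell inside the vector range. CRELD2 gave a log2 fold change of 0.33 (SE 0.18, interval from -0.11 to 0.77, limma, adjusted p = 1.0). With the block the interval ran from 0.07 to 0.60 and limma's adjusted p was 0.617. Its pair differences were 0.62, 0.32 and 0.05 log2 units. Without overexpression replicate 1 it gave 0.16 and with library weights 0.10, where 5 other genes lay above it (SYVN1, SSR1, EIF2AK3, DERL2 and MANF). CRELD2 shares 3.3% of its exon bases with ALG12 on the opposite strand, and the sources do not say if counting used strand.

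The protein disulfide isomerases gave log2 fold changes of 0.17 for P4HB, 0.08 for PDIA3, 0.05 for PDIA4 and 0.05 for PDIA6. PDIA4, the lowest of this role, read 127, 165 and 131 FPKM in overexpression libraries, against 119.8, 157 and 132 FPKM in vector libraries. Its number 2 libraries were the highest in both groups. MANF, a secreted factor that ER stress induces, read 69.0, 54.4 and 59.8 FPKM in overexpression libraries, against 59.4, 52.7 and 55.2 FPKM in vector libraries. MANF was higher in 3 of 3 pairs with a log2 fold change of 0.12 (interval from -0.21 to 0.46), and the groups overlapped.

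Genes of ERAD lay on both sides of 0. SEL1L (ENSG00000071537, chromosome 14, 81471549 to 81533861), the adaptor of the ubiquitin ligase HRD1, had the lowest log2 fold change of the 31 genes at -0.19 (interval from -0.63 to 0.25, with the block from -0.42 to 0.04). It read 16.4, 24.5 and 23.8 FPKM in overexpression libraries, against 22.2, 25.8 and 25.5 FPKM in vector libraries. Overexpression replicate 1 was the lowest library, and the pair differences were -0.41, -0.07 and -0.10 log2 units. Without that library the log2 fold change of SEL1L was -0.01. SYVN1, which encodes HRD1 itself, gave 0.15, with 10.9, 10.2 and 9.94 FPKM in overexpression libraries, against 8.87, 10.2 and 8.65 FPKM in vector libraries. SYVN1 shares 7.2% of its exon bases with FAU on the same strand, which read 130.3 to 214 FPKM, so its level is uncertain.

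DERL2 (ENSG00000072849, chromosome 17, 5471251 to 5486811), a membrane component of ERAD, had the highest log2 fold change of this role at 0.19 (interval from -0.26 to 0.65, with the block from -0.02 to 0.40). It read 18.0, 12.4 and 15.1 FPKM in overexpression libraries, against 15.1, 10.7 and 13.6 FPKM in vector libraries. Overexpression was higher in 3 of 3 pairs, by 0.24, 0.20 and 0.14 log2 units, and the groups overlapped, overexpression replicate 2 lying below vector replicates 1 and 3. HERPUD1, an ERAD scaffold induced by ER stress, read 29.6, 20.3 and 25.3 FPKM in overexpression libraries, against 25.3, 24.4 and 26.4 FPKM in vector libraries. The 3 vector values of HERPUD1 lay between the highest and the lowest overexpression values, with a log2 fold change of -0.03. DERL1, of the same family as DERL2, gave 0.05 and read 28.2, 19.9 and 23.5 FPKM in overexpression libraries, against 26.7, 17.7 and 24.8 FPKM in vector libraries. EDEM1 and EDEM2, which act on the mannose chains of misfolded glycoproteins, gave 0.10 for EDEM1 and 0.06 for EDEM2. EDEM2 read 16.04, 25.5 and 20.3 FPKM in overexpression libraries, against 15.5, 24.0 and 19.5 FPKM in vector libraries. For both DERL1 and EDEM2 the groups overlapped.

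SEC61B (ENSG00000106803, chromosome 9, 99222064 to 99230615), a subunit of the channel through which new proteins enter the ER, was the other gene with an unadjusted p under 0.05 with the block. It read 75.4, 48.6 and 54.5 FPKM in overexpression replicates 1, 2 and 3, against 53.6, 37.3 and 55.5 FPKM in vector replicates 1, 2 and 3. Overexpression minus vector was 0.48, 0.37 and -0.03 log2 units in pairs 1, 2 and 3. SEC61B gave a log2 fold change of 0.28 (SE 0.23, interval from -0.26 to 0.82, limma, adjusted p = 1.0). With the block the interval ran from 0.03 to 0.53 and limma's adjusted p was 0.645. Its log2 fold change was 0.10 without overexpression replicate 1, 0.10 without vector replicate 2 and 0.00233 with library weights. SSR1, a subunit of the translocon-associated TRAP complex, and SEC24D, a cargo adaptor of the COPII vesicles that leave the ER, gave 0.04 each. SEC24D read 9.70, 9.68 and 9.85 FPKM in overexpression libraries, against 8.503, 10.7 and 9.37 FPKM in vector libraries, all 3 overexpression values lying inside the vector range.

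The 3 pairs were not alike. The median log2 difference of the 31 genes was 0.11, 0.03 and -0.02 in pairs 1, 2 and 3, beside 0.06, 0.04 and -0.03 over all genes tested. Across the 31 genes, which share the libraries and are not independent replicates, the difference in pair 1 followed the GC content of the gene with a Spearman coefficient of 0.522, beside 0.527 over 11166 genes. In pair 2 the coefficient was 0.515 over the 31 genes and 0.108 over all, and in pair 3 it was -0.0298 over the 31 genes and -0.0882 over all. With the block and correction for GC content and length, CRELD2 gave 0.22 and SEC61B gave 0.24 log2 units, and neither was called.

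Replicate number set the libraries apart for more genes than the group did. The numbers come from the sample titles, and no label says what they stand for. In limma's F test over the 3 numbers, with group in the fit, 8 of the 31 genes had an adjusted p under 0.05 (25.8%), against 46.5% of all genes tested. The count depended on scaling. The same test called 12 of the 31 with TPM (48.7% of all genes), 12 with trimmed mean scaling (48.8%) and 13 with quantile scaling (44.5%). The 8 genes called on FPKM split evenly in direction. Number 2 was lowest in both groups for the chaperone HSPA5, the ERAD genes DERL1 and DERL2, and SEC61B. It was highest in both groups for the sensor EIF2AK3, the isomerase PDIA4, and the ERAD genes EDEM1 and EDEM2. These 8 directions were the same under FPKM, TPM, trimmed mean (TMM) and quantile scaling, but the 8 were picked by their differences on FPKM. Of all 31 genes, 19 kept the direction of number 2 against numbers 1 and 3 under the 4 scalings. HSPA5, DERL1, DERL2, SEC61B and EDEM2 were also called under all 4 scalings, while PDIA4 and EDEM1 were not called with TMM, nor EIF2AK3 with quantile scaling. Under other settings PDIA4 and EDEM1 were not called without a trend, EIF2AK3 and SEC61B with a GC and length correction, and SEC61B with the group term left out. A filter on a mean of at least 5 FPKM removed EIF2AK3, and without a filter EDEM2 alone of the 8 was called. The scalings themselves moved the median of all genes, number 2 minus number 1, to 0.09 (FPKM), 0.18 (TPM), -0.04 (TMM) and -0.02 (quantile) log2 units. Over all 31 genes on FPKM, both number 2 libraries lay above the other 4 for 7 genes, against 35.9% of all genes, and below them for 12, against 25.7%. These counts were not taken under the other scalings.

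HSPA5 fell to 286 and 291 FPKM in the number 2 libraries of overexpression and vector cells, against 382 to 412 FPKM in the other 4. Number 2 minus number 1 was -0.41 log2 units (SE 0.10), and limma's F test gave an adjusted p of 0.00741. Its fellow chaperone HSP90B1 was not called on FPKM (adjusted p = 0.436, limma F test). With quantile scaling HSP90B1 was called, number 2 minus number 1 being 0.46 log2 units. The ratio of HSPA5 to HSP90B1, which a single scaling factor per library cannot alter, was 0.548 and 0.564 in the number 2 libraries of overexpression and vector cells, against 0.745 to 0.830 in the other 4. HSPA5 was called in these same libraries, so this ratio restates its call and is no separate evidence. DERL1 fell to 19.9 and 17.7 FPKM in number 2, against 23.5 to 28.2 FPKM elsewhere (-0.52 log2 units against number 1; limma F test, adjusted p = 0.0131). DERL2 fell to 12.4 and 10.7 FPKM, against 13.6 to 18.0 FPKM (-0.48 log2 units; adjusted p = 0.0188, limma). SEC61B fell to 48.6 and 37.3 FPKM, against 53.6 to 75.4 FPKM (-0.57 log2 units; adjusted p = 0.0188, limma). In each of these genes the lowest library of both groups was number 2.

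EDEM2 rose to 25.5 and 24.0 FPKM in the number 2 libraries of overexpression and vector cells, against 15.5 to 20.3 FPKM in the other 4. Number 2 minus number 1 was 0.62 log2 units (SE 0.11), and limma's F test gave an adjusted p of 0.00477, the smallest of the 31. EDEM1 rose to 20.7 and 19.0 FPKM, against 13.7 to 16.02 FPKM (0.40 log2 units; adjusted p = 0.0428, limma). ERAD genes thus moved in both directions, and the ratio of EDEM2 to DERL1 was 1.28 and 1.36 in the number 2 libraries of overexpression and vector cells, against 0.569 to 0.864 in the other 4. EIF2AK3 rose to 5.06 and 5.19 FPKM in number 2, against 3.06 to 3.95 FPKM (0.59 log2 units; adjusted p = 0.0152, limma). PDIA4 rose to 165 and 157 FPKM, against 119.8 to 132 FPKM (0.38 log2 units; adjusted p = 0.0291, limma), and the ratio of PDIA4 to HSPA5 was 0.575 and 0.541 in the number 2 libraries of overexpression and vector cells, against 0.311 to 0.333 in the other 4. The ratios of EDEM2 to DERL1 and of PDIA4 to HSPA5 join genes called in opposite directions in these same libraries. They restate those calls and are no separate evidence.

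**Figure D4:**
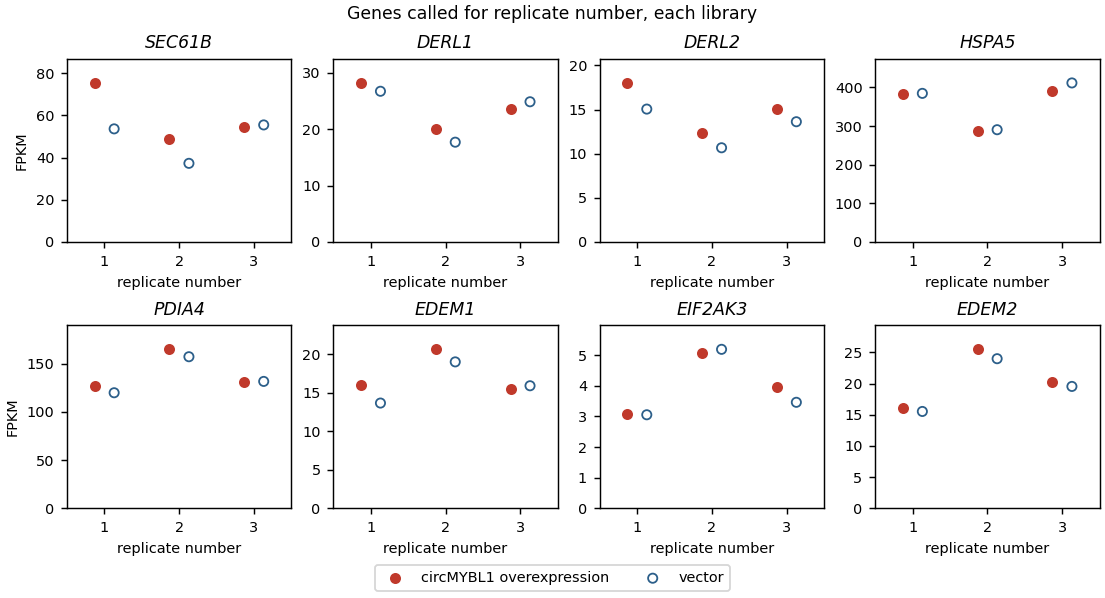
FPKM of the 8 genes called by the F test for replicate number, by replicate number, with overexpression (filled red) left of vector (open blue) at each number and axes starting at 0. Number 2 is the lowest in the upper row, as for HSPA5 at 286 and 291 FPKM, and the highest in the lower row, as for EDEM2 at 25.5 and 24.0 FPKM, in overexpression and vector cells.

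Of the other 23 genes, SEL1L (adjusted p = 0.0514, limma F test), SDF2L1 (0.0588), CANX (0.0738) and ATF6 (0.0825) lay nearest the threshold for replicate number. HYOU1 (0.851), CREB3L2 (0.797) and SYVN1 (0.688) lay farthest from it. Without the number 2 libraries of both groups, limma called 0 of the 31 genes for replicate number, against 3.71% of all genes. Without a filter on low values EDEM2 was the 1 gene of the 31 called.

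**Figure D5:**
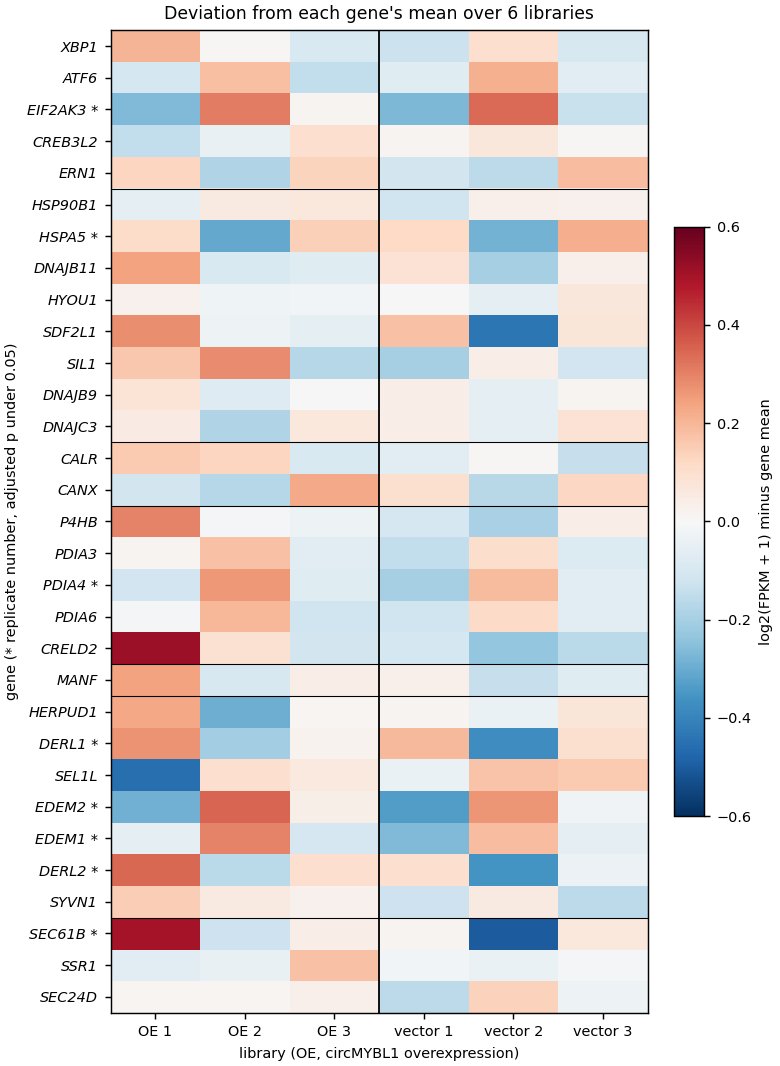
Deviation of log2(FPKM + 1) from each gene's mean over the 6 libraries, with overexpression libraries left of vector libraries, genes grouped by role and an asterisk at the 8 genes called for replicate number. The number 2 columns are low for HSPA5 and high for EDEM2 in both groups, and CRELD2 is highest and SEL1L lowest in overexpression replicate 1.

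Levels of some cell type markers moved with replicate number as well. The basal keratin KRT5 read 347 and 412 FPKM in the number 2 libraries of overexpression and vector cells, against 94.9 to 142 FPKM in the other 4. TP63, a transcription factor of basal cells, read 25.1 and 33.7 FPKM in number 2, against 11.7 to 15.3 FPKM. Of the 8 epithelial markers KRT5, KRT14, TP63 and CDH1 were called and highest in both number 2 libraries, EPCAM, KRT8 and KRT18 were not called, and KRT19 did not pass the filter. The smooth muscle actin gene ACTA2, a myoepithelial marker, read 8.02 and 7.24 FPKM in number 2, against 1.39 to 3.84 FPKM, and the collagen gene COL1A1 read 8.67 and 11.1 FPKM, against 2.95 to 4.57 FPKM. Both were called, as were NFIB and SDC1, each highest in number 2. Of the other myoepithelial or salivary markers, MYBL1 was called but was not highest in number 2. MYB was not called (adjusted p = 0.258, limma F test), and SOX10, CNN1 and KIT did not pass the filter. The leukocyte marker CD68 was not called (adjusted p = 0.104, limma F test). None of the other fibroblast, leukocyte and plasma cell markers passed the filter, and no endothelial marker did. The endothelial marker PECAM1, which did not pass the filter, read 0.985 and 1.27 FPKM in number 2, against 0.0270 to 0.0745 FPKM, with KDR at 0 throughout. The part of these differences in the replicate-number result was not tested.

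By promoter element, the 10 genes with an ERSE or ERSE-II had log2 fold changes between overexpression and vector of -0.04 to 0.33, with a median of 0.04. The 18 genes whose window holds neither had -0.19 to 0.28, with a median of 0.06. For replicate number on FPKM, 1 of the 10 with an element was called (HSPA5), and 6 of the 18 without, against 46.5% of all genes. HSP90B1, with an ERSE at each of 2 places, and CALR, with 1, were not called on FPKM (adjusted p = 0.436 and 0.289, limma F test). Among genes with an element, TMM added SDF2L1, CANX, CRELD2 and HERPUD1, TPM added PDIA6, and quantile scaling added HSP90B1, SDF2L1, CALR and PDIA6. Among genes without, TMM exchanged PDIA4 and EDEM1 for DNAJB11 and MANF, and quantile scaling exchanged EIF2AK3 for SEL1L. TPM added ATF6 and SEL1L there. The difference between the 1 and the 6 thus depends on the scaling. These counts are descriptions with no test.

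Further genes of the ER pathways, listed separately, gave 0 calls between the groups by limma in either fit. They comprised 22 tested genes of folding and oxidation (median log2 fold change 0.04), 20 of ERAD (0.06), 18 of the translocon and signal peptidase (0.07), 16 of COPII transport and retrieval (0.05), 11 regulators of the response (0.05) and 10 targets of the PERK arm (0.12). At an unadjusted p under 0.05 there were 0 of these genes without the block. With it there were 1 of ERAD, 4 of the translocon, 1 of COPII transport and 2 of the PERK arm, against 7.19% of all genes. SAR1B, the GTPase that starts COPII vesicles, averaged 9.37 ± 1.02 FPKM in overexpression and 7.47 ± 1.003 FPKM in vector libraries (SD, n = 3 each), a log2 fold change of 0.29 (with the block, limma, adjusted p = 0.607), and its overexpression range lay above its vector range. The same held for SRP54 of the signal recognition particle, and the opposite for the signal peptidase subunit SPCS2, where ranges were apart for 3.34% of all genes. SRP54 and SPCS2 are named here for those ranges, after their values were seen. CEBPB, a stress-responsive transcription factor, averaged 27.0 ± 4.34 FPKM in overexpression and 19.0 ± 6.86 FPKM in vector libraries (SD, n = 3 each), a log2 fold change of 0.53 (interval from -0.09 to 1.14; with the block, limma, adjusted p = 0.521).

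For replicate number, every list held called genes. Over all genes tested the share called was 46.5%, and the counts for the translocon, ERAD and regulator lists lie near it. By direction, 2106 of the 12064 genes were called and lowest in both number 2 libraries, and 3026 were called and highest in both. Of the PERK arm targets, 7 of 10 were called, all 7 lowest in both number 2 libraries. PPP1R15A, the phosphatase subunit that ends the PERK signal, fell to 27.5 and 26.8 FPKM in the number 2 libraries of overexpression and vector cells, against 86.7 to 117 FPKM in the other 4. The transcription factor ATF3 fell to 19.3 and 18.4 FPKM, against 41.1 to 51.2 FPKM. EIF2AK3, the sensor of this arm, was high in the same libraries. Its mRNA level does not measure PERK activity, and a link between EIF2AK3 and these targets was not tested. Of the translocon list, 9 of 18 were called, all 9 lowest in number 2, as SEC61B was. Among them the signal peptidase subunit SEC11C fell to 6.53 and 7.40 FPKM, against 13.8 to 18.3 FPKM. The folding and oxidation list had 6 of 22 called, ERAD 9 of 20, COPII 5 of 16 and regulators 5 of 11, each with genes in both directions. PRDX4, an ER peroxidase, fell to 61.0 and 53.9 FPKM in number 2, against 92.8 to 100.4 FPKM, while the ER oxidase ERO1B rose to 3.72 and 4.67 FPKM, against 1.72 to 2.46 FPKM. SAR1A, the other COPII GTPase, rose to 109.7 and 131 FPKM in number 2, against 41.4 to 44.7 FPKM.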

How the data were processed

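The 6 libraries of SACC-83 cells were grouped by their titles. FPKM values per gene were computed by the authors and deposited in 1 table of 27328 loci. The submitters' processing notes name HISAT2 and GRCh38. The quantification tool, annotation, strand use and tool versions were not given in the sources used here. FPKM divides by the library total, so abundant genes can shift others, and no read depth or interval for counting error can be derived. Members were matched by symbol. The members and gene lists were chosen with earlier results of these data known. Genes with at least 1 FPKM in at least 3 libraries were kept (12064), and limma 3.58.1 (R 4.3.3) was run on log2(FPKM + 1) (eBayes with trend, 2-sided, Benjamini-Hochberg over all genes kept, threshold 0.05) with group as the term. A replicate block was the alternative. Same-numbered libraries correlated at 0.725, 0.881 and 0.529 after removal of group means, each above 0.1, so the numbers were taken to pair the libraries, on these correlations and not on the labels. Numbers 1 and 3 also correlated crosswise (0.412 and 0.424). TMM factors were computed directly on FPKM, as a scaling. The smallest p of an exact permutation test between 3 and 3 libraries is 0.1. Positions are from GENCODE release 29 (GRCh38) and promoters from RefSeq (GRCh38.p14). Of the 31 genes, 17 share exon bases with another annotated gene, and pseudogenes named after PDIA3, SSR1 and XBP1 are annotated, so shared reads make those values less certain.

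Values in every library are given for the sensors, transcription factors and HSPA5, for the highest and lowest log2 fold change in each role, and for the 6 genes with the smallest F test p. From each other list, up to 3 genes by the group p and 2 by the F test p could be named. SYVN1, HERPUD1, HSP90B1 and EDEM1 are given with values beyond that rule. Alternatives were pseudocounts of 0.1 and 0.5, no filter, a mean of at least 5 FPKM, TPM, TMM, quantile scaling, no trend, library weights, the block with a GC and length correction, and leaving out libraries.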

Additional observations from a re-analysis of the deposited data

How the results depend on the processing

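Between overexpression and vector, 0 of the 31 genes were called under any setting run. Over all genes the group fit called 0, while library weights called 346, the replicate block 12, the block with GC and length correction 2, leaving out single libraries 0 to 1, and the block without number 1, 2 or 3 called 14, 148 and 22. Of the 31 log2 fold changes, 8 kept their sign in every setting and 23 turned at least once. DNAJB9 turned to -0.0221 with TMM, -0.0194 with TPM and -0.0248 with quantile scaling. The estimation of library weights stopped before convergence, so values under them are uncertain. They gave ERN1 -0.0575, CREB3L2 0.0683, SIL1 -0.00775, DNAJB9 -0.0202, DNAJB11 -0.0797, SDF2L1 -0.107, CANX 0.0586, P4HB -0.0432, PDIA6 -0.0310, DERL1 -0.0695 and EDEM1 -0.0140. The block with GC and length correction gave ATF6 0.00964, DNAJC3 0.0146, SDF2L1 -0.0336 and PDIA4 -0.0150. The block without number 1 gave ERN1 -0.0351, XBP1 -0.0442, DNAJB9 -0.0204, CANX 0.0487 and SEC24D -0.0306. Without number 2 it gave SDF2L1 -0.0154, HERPUD1 0.0772 and DERL1 -0.000380, and without number 3 it gave EIF2AK3 -0.0118, HYOU1 0.0278 and SSR1 -0.0276. Leaving out single libraries gave ranges of EIF2AK3 -0.102 to 0.223, HSPA5 -0.185 to 0.110, HSP90B1 -0.0109 to 0.0776, CANX -0.158 to 0.0407, PDIA4 -0.0719 to 0.153, PDIA6 -0.0390 to 0.120, EDEM1 -0.0292 to 0.210, EDEM2 -0.0979 to 0.220, SEC24D -0.0335 to 0.114, ERN1 -0.00855 to 0.162, ATF6 -0.151 to 0.0461, DNAJB9 -0.0397 to 0.0403, DNAJB11 -0.0535 to 0.112, SDF2L1 -0.0614 to 0.243, DERL1 -0.118 to 0.172, HYOU1 -0.0379 to 0.0227, DNAJC3 -0.0866 to 0.0338, HERPUD1 -0.156 to 0.104 and SSR1 -0.0337 to 0.0868. For replicate number, no filter called 3389 genes and 1 of the 31, quantile scaling called 13 of the 31, and leaving out number 2 called 447 genes and 0 of the 31, against 5605 and 8 with all libraries. The causes were not tested. The replicate block changed no call among the 31 genes. Depth is unknown, so its limits could not be stated.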
